A study of Mus musculus with 5 samples.

Results

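The lysosomal genes described here are 38 genes that encode the proteases, glycan and lipid hydrolases, membrane and transport proteins and proton pump of the lysosome, together with the transcription factor Tfeb. They were chosen by gene symbol from a list, and 38 of 38 were found among the 32285 gene features of each of 5 libraries. The list holds 10 proteases, 9 glycan and lipid hydrolases, 8 membrane, transport and cofactor proteins, 1 transcription factor, 4 subunits of the membrane part of the pump (V0) and 6 of its catalytic part (V1). The libraries are single-nucleus multiome libraries, in which each nucleus of mouse hippocampus gave both RNA and open chromatin, and there was 1 library for each group. The groups are wild type, 5xFAD (a transgenic mouse model of amyloid deposition, with transgenes driven in neurons by the Thy1 promoter), and 5xFAD with monoacylglycerol lipase (MAGL) deleted in astrocytes, in neurons or in the whole animal. The 3 knockout groups are written as 5xFAD astrocyte, neuron and global MAGL-KO, and each also carries the 5xFAD genotype, so each was compared with 5xFAD. The Cre drivers, the age and sex of the animals and the number of animals per library are not given in the labels.

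Lysosomes are acidic organelles in which cathepsins cut proteins and hydrolases take sugars, sulfate groups and fatty acids off glycans and lipids. The V-ATPase pumps protons into the lumen, and most of the hydrolases need that acidity. In the brain, microglia take up debris and amyloid and pass it to lysosomes, lysosomal cathepsins are among the genes known to rise in microglia around amyloid plaques, and neurons use the V-ATPase also to load synaptic vesicles. TFEB binds the CLEAR element, a palindrome built around the E-box letters CACGTG, in the promoters of many lysosomal genes.

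The E-box was looked for in the 250 bases before the RefSeq transcription start of each member (GRCm38.p6). Of 38 members, 31 have an entry in the promoter table, and 12 of the 31 (38.7%) hold CACGTG, against 6.86% of 27025 genes. The longer palindrome TCACGTGA, which contains CACGTG, is in 5 of the 31 (16.1%), namely Ctsa, Ctsd, Gla, Mcoln1 and Atp6v1a, against 0.907% of genes. With 1 more letter on each side (G before it and C after it) the palindrome is in 0 of the 31 members and in 0.270% of genes. Each motif reads the same on both strands. A match is a description of the letters and not of TFEB binding. The stretches below hold the E-boxes (in capitals) of 8 members whose levels are given in the results, read 5′ to 3′ on the strand of the gene.
Ctsd, chr7:142387900-142388077, minus strand: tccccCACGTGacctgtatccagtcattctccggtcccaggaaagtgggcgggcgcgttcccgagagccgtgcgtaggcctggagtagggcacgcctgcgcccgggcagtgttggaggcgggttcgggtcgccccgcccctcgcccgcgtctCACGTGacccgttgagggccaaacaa
Ctsa, chr2:164833741-164833772, plus strand: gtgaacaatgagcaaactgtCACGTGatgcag
Ctsl, chr13:64370731-64370770, minus strand: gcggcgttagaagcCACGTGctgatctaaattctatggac
Gaa, chr11:119267803-119267848, plus strand: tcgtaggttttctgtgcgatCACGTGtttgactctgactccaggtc
Lamp1, chr8:13159080-13159160, plus strand: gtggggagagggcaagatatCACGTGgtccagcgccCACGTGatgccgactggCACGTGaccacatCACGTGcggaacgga
Mcoln1, chr8:3500428-3500499, plus strand: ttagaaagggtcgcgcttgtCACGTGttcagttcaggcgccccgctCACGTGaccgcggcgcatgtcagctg
Atp6v0b, chr4:117887330-117887385, minus strand: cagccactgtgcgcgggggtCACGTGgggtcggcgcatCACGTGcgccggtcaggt
Atp6v1a, chr16:44139365-44139410, minus strand: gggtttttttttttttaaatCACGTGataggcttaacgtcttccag
Lamp1, a heavily glycosylated protein of the lysosomal membrane, has 4 E-boxes within 81 bases. Ctsd, Mcoln1 and Atp6v0b have 2 each, and the others printed have 1. The other 4 members with an E-box are Ctsf, Gla, Glb1 and Naglu.

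Sets of 5 values are given from wild type through 5xFAD to astrocyte, neuron and global MAGL-KO, as in the nuclei deposited (5245, 5185, 6164, 4050 and 7498). After filtering, 3917 to 7032 nuclei per library were used, with medians of 14068.5 to 17353.5 UMIs (unique molecular identifiers, the unit of the counts) per nucleus before filtering. Levels are UMIs summed over the nuclei of a class in a library and scaled to 1000000 UMIs of that class (CPM). Microglia numbered 43, 86, 123, 54 and 97 nuclei, astrocytes 72, 52, 48, 31 and 32, oligodendrocytes 219 to 312, excitatory neurons 2298 to 4603 and inhibitory neurons 280 to 430. The classes are clusters named from marker genes, so that microglia, for example, stands for microglia-like nuclei, and 17.2% to 21.7% of nuclei stayed unnamed. Microglia were shallow, with medians of 2039 to 2849 UMIs per nucleus. With 1 library per group there is no test of any difference between groups. Brackets hold 95% intervals of counting error only, Poisson for levels and conditional binomial (Clopper-Pearson) for log2 ratios. Differences between animals and between library preparations cannot be told apart from those between genotypes. Between any 2 libraries, 29 to 63 cell barcodes were shared.

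The gene that encodes MAGL, Mgll, was read in every library as a check of the labels. In astrocytes Mgll stood at 475, 330.5, 451, 366 and 414 CPM, and in excitatory neurons at 73.3, 73.3, 89.9, 93.1 and 80.4 CPM. Mgll UMIs were therefore not lost in the classes that the knockout labels name. Which exons the deletion removed is not in the labels, and UMIs that lie outside it are no check, so the knockouts are written as labelled.

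The lysosomal genes were first placed across cell classes. Microglia had the highest median level over the 5 libraries for 32 of 38 members, beside 29.5% of all gene features with enough UMIs. For 24 members microglia were highest in each of the 5 libraries (10.7% of all features), and for 22 every microglial value lay above every value of the other 4 classes (8.25%). By role, 8 of 10 proteases, 6 of 9 hydrolases, 5 of 8 membrane and cofactor proteins, 2 of 4 V0 subunits and 1 of 6 V1 subunits had no such overlap. With each nucleus assigned to its highest marker score, in place of naming clusters, the 22 became 10, and the share of all features became 3.82%.

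**Figure D1:**
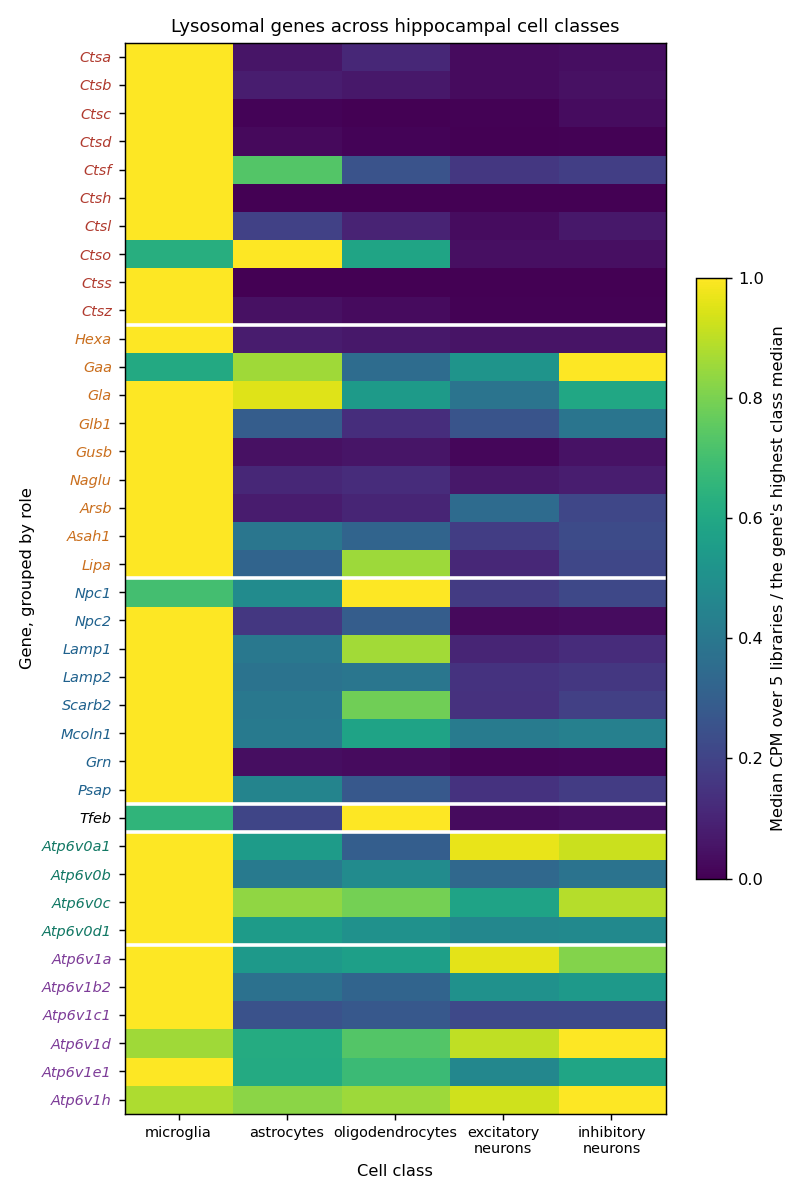
Levels of the 38 members in 5 cell classes. Each row is 1 gene, grouped and coloured by role, each column a class, and the colour is the median CPM over 5 libraries divided by the gene's highest class median (0 to 1). The microglial column is at 1 for 32 of 38 genes, and several rows of the proton pump are close to even over the classes.

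Among the roles, the proteases had the highest share of members without overlap. Ctss, a cathepsin of antigen presenting cells that works also at neutral pH, stood at 1797, 2214, 2527, 2585 and 1960.1 CPM in microglia and at 0.61, 1.41, 1.46, 1.88 and 0.839 CPM in excitatory neurons. Ctsh, an aminopeptidase, stood at 221, 303, 326, 311 and 421 CPM in microglia. In the next class both genes rested on few UMIs and no ratio is given, with medians of 4.97 CPM for Ctss (astrocytes, 0 to 6 UMIs per library) and 1.03 CPM for Ctsh (oligodendrocytes, 0 to 4 UMIs). The microglial median over that of the next class was 42.0 for Ctsd (the main aspartic protease of lysosomes), 30.6 for Ctsc (which trims dipeptides), 22.9 for Ctsz (a carboxypeptidase) and 12.6 for Ctsb (an abundant cysteine protease). The exception was Ctso, whose median was highest in astrocytes.

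Among the hydrolases and cofactors, the microglial median stood 26.8 times above the next class for Grn (progranulin, a cofactor that keeps lysosomal enzymes active), 17.3 times for Gusb (beta-glucuronidase) and 13.1 times for Hexa (which degrades ganglioside GM2). Gaa, which breaks down glycogen in lysosomes, was the one hydrolase with its highest median elsewhere, in inhibitory neurons. Of the membrane proteins, Npc1, which exports cholesterol, was highest in oligodendrocytes at 146, 128, 150.4, 129 and 123 CPM, beside 84.1, 90.4, 132, 99.7 and 87.1 CPM in microglia. Tfeb also had its highest median in oligodendrocytes, at 93.3, 101, 103, 116 and 105 CPM. In microglia Tfeb stood at 105, 67.8, 54.3, 82.1 and 67.8 CPM on 10 to 15 UMIs, and the ranges of the 2 classes overlapped. In excitatory neurons Tfeb was at 2.42, 3.18, 3.35, 2.80 and 3.27 CPM.

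The proton pump was mixed: microglia had the highest median for 8 of 10 subunits, and for 3 of them without overlap. Atp6v0a1, the V0 subunit that anchors the pump to the membrane, stood at 252, 353, 267, 234 and 358 CPM in microglia and 243, 260.3, 252, 259 and 267 CPM in excitatory neurons, a ratio of medians of 1.03. The subunits without overlap were Atp6v1c1, at 3.61 times the next class, Atp6v0b at 2.08 times and Atp6v0d1 at 1.82 times. Atp6v1b2 stood at 1.84 times and Atp6v1e1 at 1.46 times, with overlap. The ratio to the next class was 1.04 for Atp6v1a (the ATP-splitting subunit) and 1.12 for Atp6v0c (the proton-carrying ring). Atp6v1d and Atp6v1h were highest in inhibitory neurons. Lamp1 had a ratio of 1.16 over oligodendrocytes.

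The promoters of the members were also most accessible in microglia. Cut sites of the transposase were counted in peaks that overlap the start interval deposited for a member, widened by 500 bases on each side. For some members that interval is long, so peaks inside the gene are counted too. For Tfeb the peaks ran from 47736670 to 47784166 on chromosome 17 in wild type. The cut sites summed to 2797, 3088, 3101, 3036 and 2783 CPM of the cut sites in peaks in microglia. Oligodendrocytes had 2233 to 2346, astrocytes 1740 to 2088, inhibitory neurons 1214 to 1372 and excitatory neurons 1035 to 1116, so that the microglial range overlapped no other class. Peaks were called separately for each library, 36 members had one in wild type and 37 in each of the other 4, and the summed peak width was 38589 to 41577 bases. Summed over all genes in the same way, the values were 842250 to 857735 CPM in microglia and 495792 to 520246 in excitatory neurons. A peak counts there once for each gene whose interval it overlaps, so these sums are not a share of cut sites at promoters. Members held 0.327% to 0.366% of the sum in microglia and 0.285% to 0.297% in oligodendrocytes. In astrocytes they held 0.242% to 0.286%, in inhibitory neurons 0.220% to 0.228% and in excitatory neurons 0.209% to 0.214%.

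The comparison of 5xFAD with wild type asks how the lysosomal genes stand in microglia of the amyloid model. Summed over all 38 members, microglial levels were 10035 CPM [9409, 10692] in wild type and 14932 CPM [14427, 15450.0] in 5xFAD, a log2 ratio of 0.57 [0.47, 0.68]. Of the 38 members, 25 had at least 30 UMIs over both libraries. Of these, 23 were higher in 5xFAD, their median log2 ratio was 0.52 against 0.01 for all features, and 11 were at least 1.5-fold higher, where 18.0% of all features were. Just 1 was at least 1.5-fold lower, beside 13.9% of all features. Over the alternatives the median ran from 0.23 within 1 of the microglial subclusters (m1) to 1.06 with the stricter filter on nuclei. In the latter the median of all features was 0.22, and 19 members were at least 1.5-fold higher (27.2%). That setting clusters the nuclei anew, and its wild type microglia hold more UMIs in as many nuclei (values given with Arsb below). The wild type class compared there is therefore not the same set of nuclei. The other 13 members, too low for a ratio each, summed to 71 UMIs in wild type and 162 in 5xFAD, a log2 ratio of -0.03 [-0.44, 0.40]. The minimum was set on both libraries together, and microglia held 95166 UMIs in wild type and 221270 in 5xFAD. Members with few wild type UMIs, such as Atp6v1a and Atp6v1b2, are therefore among the 25 and the 11 mainly through 5xFAD. The median and counts of members carry this limit, and the same minimum was set for all features.

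Of 8 proteases with enough UMIs, 4 were past 1.5-fold and all 4 higher in 5xFAD. Ctsb stood at 357, 1171, 1182, 1284 and 842 CPM in microglia, a log2 ratio of 5xFAD over wild type of 1.71 [1.19, 2.27]. Ctsd, the most abundant of them by UMIs, stood at 1082, 2888, 2833, 3793 and 2149 CPM (1.42 [1.11, 1.73]). Wild type was the lowest library for both, and its Poisson interval overlapped none of the other 4. Ctsz stood at 252, 642, 798, 569 and 479 CPM (1.35 [0.72, 2.04]), and Ctsl, which also processes other cathepsins, at 158, 362, 569.7, 551 and 455 CPM (1.198 [0.39, 2.10]). Ctss differed less, with 1797 CPM in wild type and 2214 CPM in 5xFAD (0.30 [0.05, 0.56]). Ctsa, Ctsc and Ctsh lay between 0.44 and 0.48, with intervals that include 0.

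**Figure D2:**
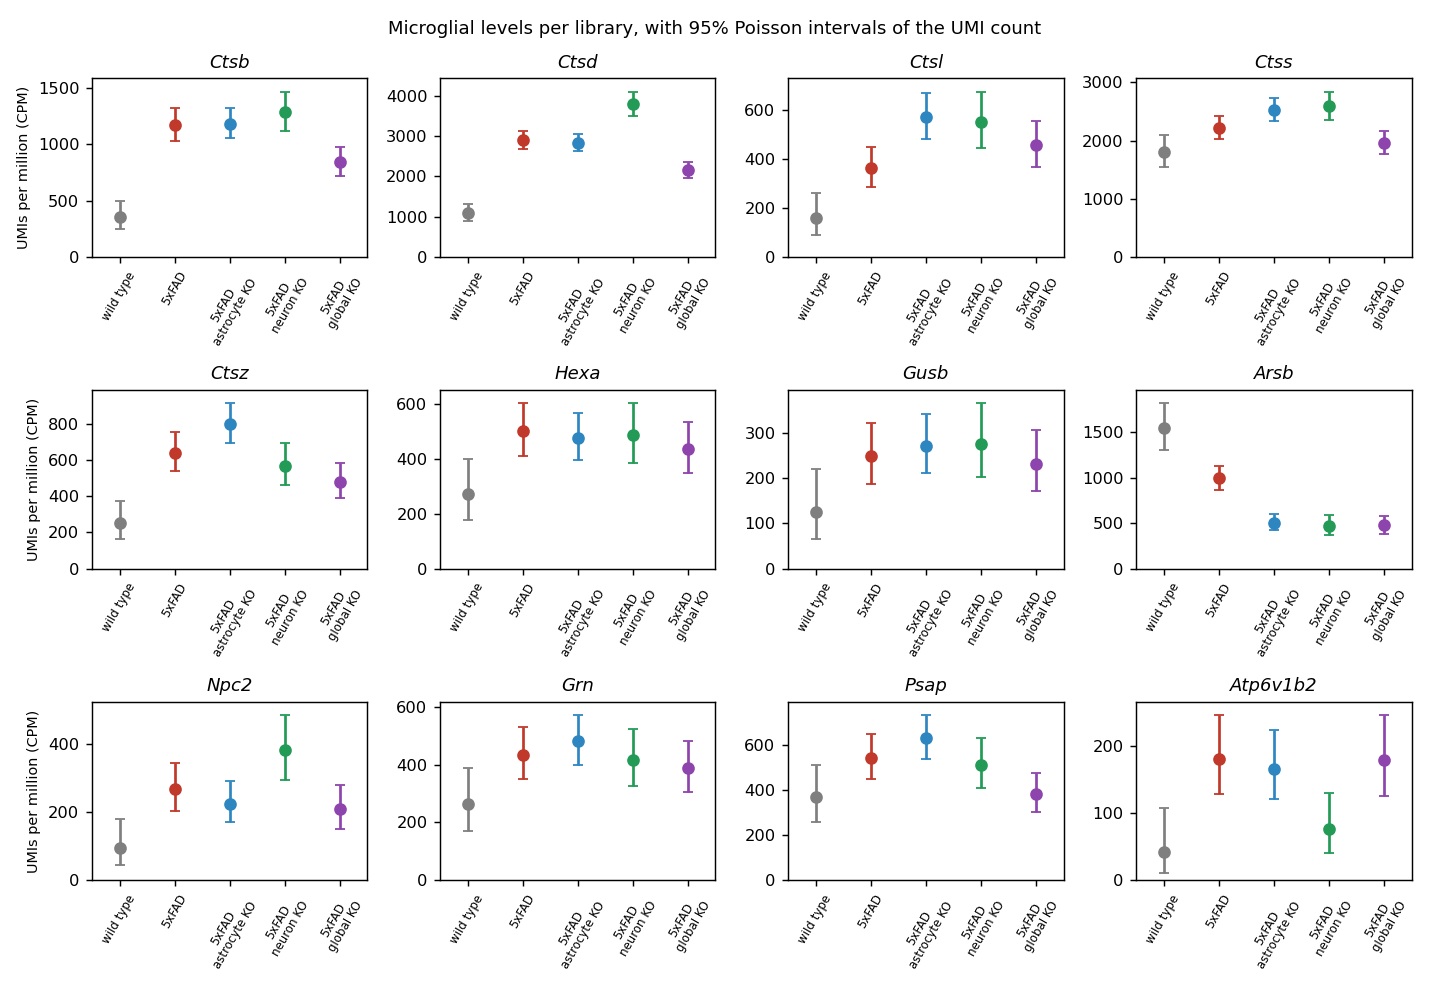
Microglial levels of 12 members in each library, in CPM on linear axes from 0; points are libraries and bars are 95% Poisson intervals of the UMI count. Ctsb and Ctsd are lowest in wild type, and Arsb is highest in wild type and lowest in the 3 knockout libraries.

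The hydrolases differed in both directions. Hexa stood at 273, 502, 477, 487 and 436 CPM (0.88 [0.25, 1.55]) and Gusb at 126, 249, 271, 276 and 232 CPM (0.98 [0.06, 2.02]), both past 1.5-fold. Asah1, the acid ceramidase, stood at 252, 280.2, 264, 269.7 and 189 CPM (0.15 [-0.55, 0.90]), a difference within counting error. Arsb, arylsulfatase B, which takes sulfate off dermatan sulfate, went the other way, with 1545, 989.7, 504, 469 and 474 CPM (-0.64 [-0.95, -0.33]). With Arsb among them, the hydrolases summed to a log2 ratio of -0.09 [-0.32, 0.14], while the proteases summed to 0.89 [0.74, 1.05]. Arsb is a gene of 171 kb on chromosome 13, and nuclear RNA holds many intronic reads. Under the stricter filter on nuclei its ratio was -0.04, and in that setting the microglia of the wild type library had 171660 UMIs in all in place of 95166, with 43 nuclei in both.

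Of 6 membrane and cofactor proteins with enough UMIs, 2 were past 1.5-fold. Npc2, which hands cholesterol to Npc1, stood at 94.6, 267, 225, 381 and 208 CPM (1.495 [0.47, 2.69]), and Grn at 263, 434, 481, 416 and 387 CPM (0.72 [0.08, 1.42]). Psap, the precursor of the saposins that help enzymes reach sphingolipids, stood at 368, 542, 628, 510.0 and 382 CPM (0.56 [0.01, 1.15]). Lamp1 and Lamp2, the main membrane glycoproteins, had ratios of 0.24 [-0.45, 0.98] and 0.31 [-0.25, 0.90], and Scarb2, a receptor that carries glucocerebrosidase to lysosomes, -0.46 [-1.19, 0.30]. Those 3 intervals include 0.

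In the proton pump, 3 of 4 V1 subunits with enough UMIs were past 1.5-fold higher, and 0 of 3 V0 subunits were. No contrast between V1 and V0 is read from these counts, because Atp6v1a and Atp6v1b2 reached the minimum mainly through their UMIs in 5xFAD. Microglia held 221270 UMIs in 5xFAD and 95166 in wild type, and Atp6v0d1, Atp6v1d and Atp6v1e1 stayed below the minimum. The V1 values rest on few wild type UMIs: Atp6v1b2 had 4 UMIs in wild type and 40 in 5xFAD (2.10 [0.64, 4.05]), Atp6v1a 4 and 28 (1.59 [0.07, 3.56]) and Atp6v1c1 10 and 48 (1.05 [0.04, 2.19]). Both Atp6v1a and Atp6v1b2 bind nucleotide at the catalytic head. The V0 subunits Atp6v0c, Atp6v0a1 and Atp6v0b had ratios of 0.52, 0.48 and 0.34, with intervals that include 0.

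**Figure D3:**
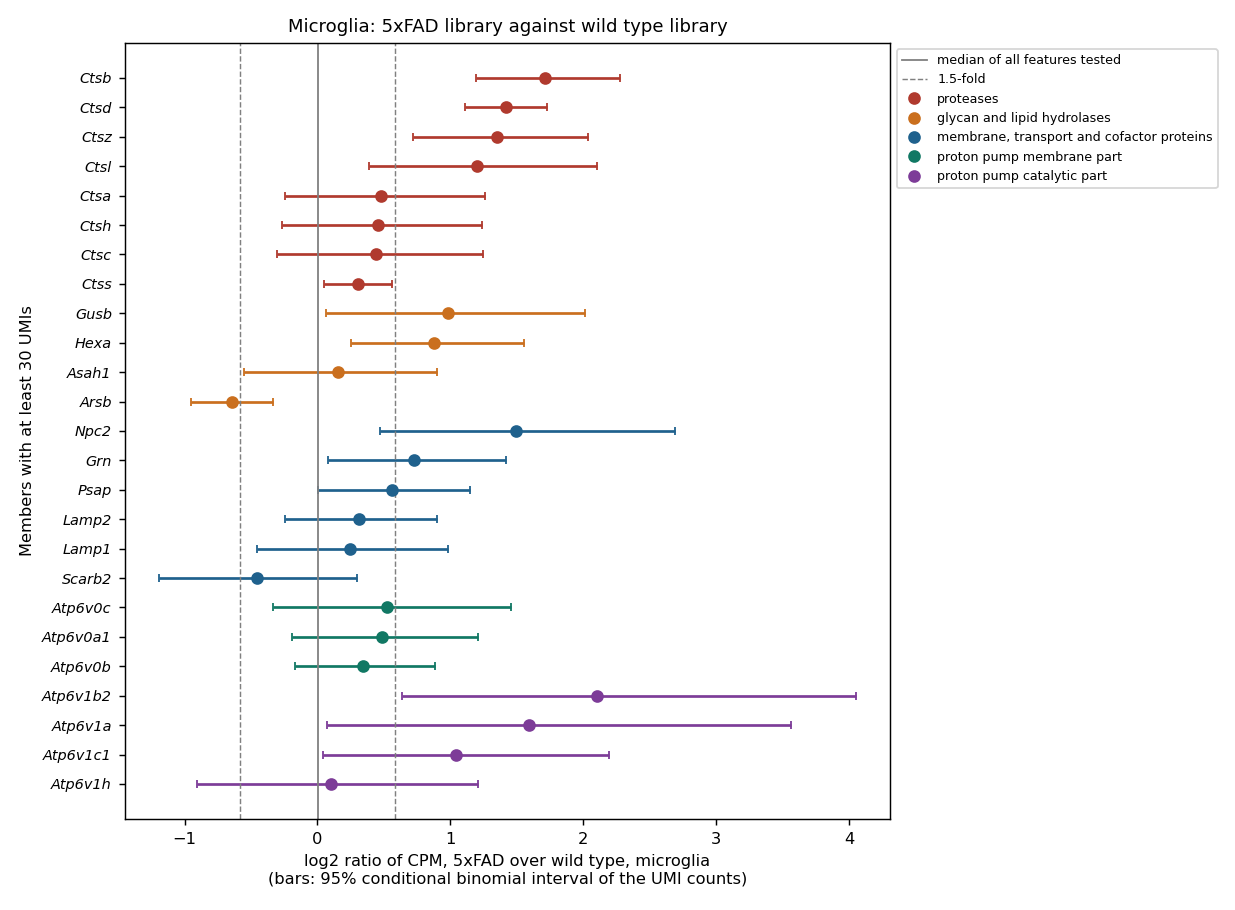
Log2 ratio of CPM in microglia, 5xFAD over wild type, for the 25 members with at least 30 UMIs; points are ratios coloured by role and bars are 95% conditional binomial intervals of the counts. The grey line is the median of all features (0.01), the dashed lines mark 1.5-fold, and 11 members lie beyond the upper and 1 beyond the lower dashed line. Some of the 11, such as Atp6v1a and Atp6v1b2, reached the minimum mainly through their UMIs in 5xFAD.

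Among 65 other lysosomal genes, 16 had enough UMIs in microglia, 6 of them at least 1.5-fold higher in 5xFAD and 1 lower, beside 18.0% and 13.9% of all features, with a median of 0.16 (all features 0.01). The highest were Cd63 (1.84 [0.62, 3.35]), a tetraspanin of late endosomes and lysosomes, Sumf1 (1.74 [0.24, 3.70]), which activates sulfatases, and Ppt1 (0.98 [-0.02, 2.14]), a palmitoyl-protein thioesterase. Cd63 had 6 UMIs in wild type and 50 in 5xFAD and Sumf1 4 and 31, so both reached the minimum mainly through 5xFAD. The lowest were Sort1 (-0.71 [-1.47, 0.07]), a sorting receptor that carries proteins to lysosomes, Atp6v0a2 (-0.54) and Laptm4a (-0.46).

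Member genes shorter than 20 kb had a median ratio of 0.85 (10 members) and longer ones 0.46 (15 members), while all features of both length classes stood at 0.01. All 11 microglial markers had UMIs in each library, and they summed to 13503, 12094, 14006, 12944 and 12632 CPM. The 6 macrophage markers summed to 10.5, 13.6, 3.88, 0 and 353 CPM and were thus raised in the global MAGL-KO library. The microglia of wild type and 5xFAD held nuclei with Xist UMIs (21 and 44) and nuclei with Y-linked UMIs (14 and 32), and the member median was 0.76 in the former and 0.77 in the latter. With microglia that had any macrophage marker UMI left out, the median of the 5xFAD comparison was 0.56. At the promoters, cut sites of members in microglia summed to 2797 CPM over 38589 bases of peaks in wild type (72.5 CPM per kb) and 3088 CPM over 41577 bases in 5xFAD (74.3 CPM per kb), in peaks called separately, so no ratio is read from the sums. Over the 35 members with enough cut sites, each in its own peaks, the median log2 ratio was 0.02, and 6 members were at least 1.5-fold higher (14.1% of all genes) and 1 lower (13.6%). The Ctsb promoter stood at 90.8 CPM of cut sites in wild type and 92.1 in 5xFAD, and the Ctsd promoter at 85.4 and 119, both on fewer than 100 cut sites.

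The microglia were then divided, after the data had been seen, with the lysosomal genes kept out of the clustering. Subcluster m0 (high Apoe, Lpl and Igf1, a profile known from plaque-associated microglia) held 2, 55, 76, 39 and 51 nuclei, and subcluster m1 held 41, 30, 45, 13 and 46. P2ry12 and Cx3cr1, markers of microglia at rest, stood at 1622 and 1421 CPM in m1 and at 647 and 704 CPM in m0. The 10 leading genes of m1 hold neither, and they include Stab1, Mrc1 and F13a1, genes of tissue macrophages. Mrc1 stood at 83.5 CPM in m1 and 3.7 CPM in m0, so m1 over all libraries is a mixture that also holds macrophage-marked nuclei, and it is called by its number. By the sums given above, macrophage marker levels were raised in global MAGL-KO, so this limit bears mostly on the m1 values of that library. Another 5 nuclei formed a proliferating subcluster. The share of m0 thus differed between wild type and each 5xFAD library, and a comparison of whole microglia compares different mixtures. Subclusters with fewer than 20 nuclei were not used, which leaves 1 wild type value, in m1.

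Within the 5xFAD library m0 was above m1 for 20 of 23 members, with a median log2 ratio of 0.62 (all features -0.03). There 12 members were at least 1.5-fold higher (21.1% of all features). In the astrocyte MAGL-KO library the median was 0.10 (all features 0.04), with 17 members above m1 and 10 below. Of these 27, 9 were at least 1.5-fold higher (20.7%). In the global MAGL-KO library the median was 0.36 (all features 0.01), with 16 above and 6 below, and 7 of 22 were at least 1.5-fold higher (17.8%). At least 1.5-fold lower was 1 member in each library (16.9%, 15.5% and 14.9% of all features). Ctsb was higher in m0, with log2 ratios of 1.32 [0.82, 1.85], 1.31 [0.89, 1.76] and 1.45 [0.94, 1.98] in these 3 libraries. Ctsz had ratios of 1.11, 1.02 and 1.18, and Ctsd had 1.62, 0.74 and 1.02, so these 3 proteases were on the same side in each library. Ctss differed little and in both directions (0.22, -0.34 and 0.13). Arsb likewise had ratios of -0.29, 0.01 and 0.50.

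Within m1 the 5xFAD library differed less from wild type than whole microglia did. Members summed to 10010.4 CPM in wild type m1 and 10703 CPM in 5xFAD m1, beside 17089.5 CPM in 5xFAD m0. Over 16 members the median log2 ratio in m1 was 0.23, and 3 were at least 1.5-fold higher (11.6% of all features). Ctsd in m1 stood at 1071 CPM in wild type and 1207 CPM in 5xFAD, a log2 ratio of 0.17 where whole microglia gave 1.42. Ctsb stood at 357 and 581 CPM (0.70) and Npc2 at 78.1 and 89.4 CPM. Arsb was lower in 5xFAD also within m1, at 1118 against 1629 CPM (-0.54).

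**Figure D4:**
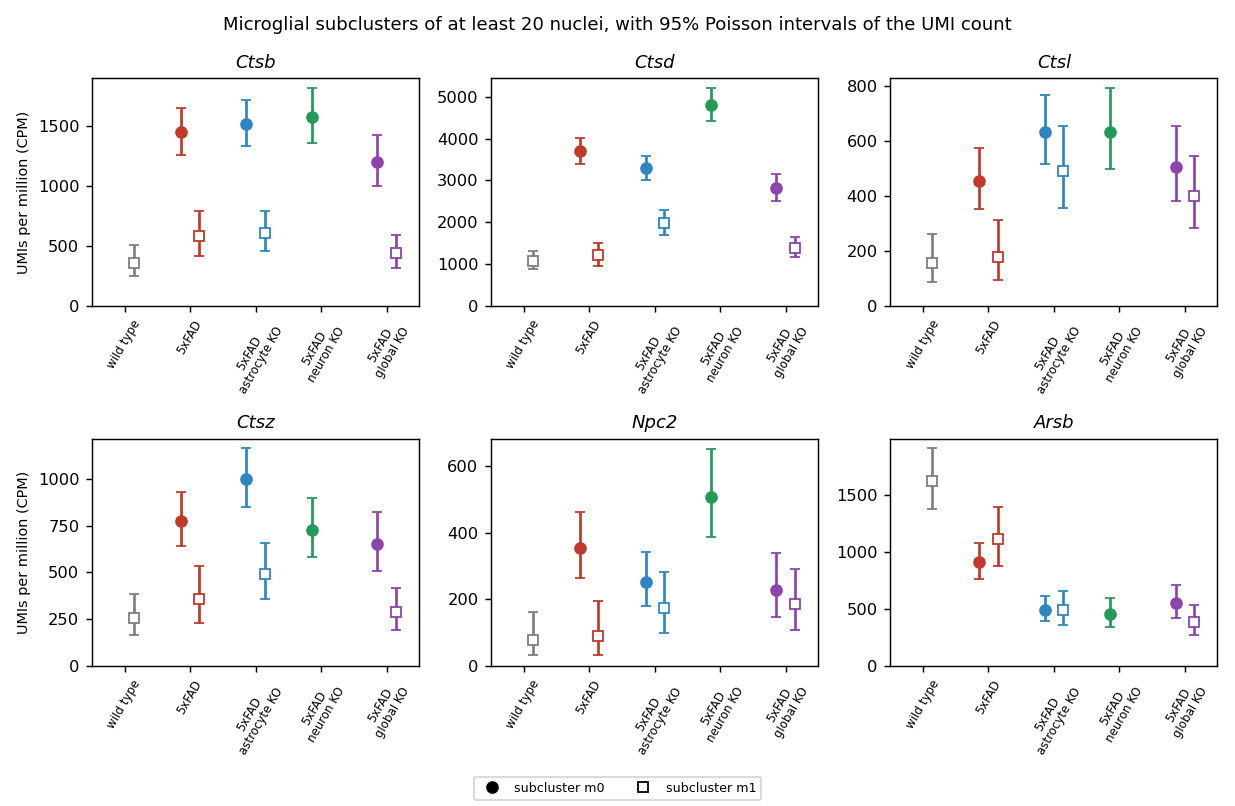
Levels of 6 members in 2 microglial subclusters of each library, in CPM on linear axes from 0; filled circles are m0, open squares m1, and bars are 95% Poisson intervals. Ctsb and Ctsz are higher in m0 than in m1 in the 3 libraries plotted with both, while Arsb is lower than in 5xFAD in the 3 knockout libraries plotted for m0 and in the 2 plotted for m1.

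The comparisons of the 3 knockout libraries with 5xFAD share the same 5xFAD library, so a value that is high or low in it moves all 3 ratios. The libraries also differ in sex-linked UMIs. From 5xFAD to global MAGL-KO, microglia with Xist UMIs alone numbered 44, 76, 44 and 60, and with Y-linked UMIs alone 32, 31, 6 and 20. Excitatory nuclei numbered 1211, 2009, 1727 and 2316 and 1692, 1437, 427 and 1780. In ratios over all nuclei this difference cannot be told apart from genotype. Member medians in microglia were -0.03 in the library labelled astrocyte MAGL-KO (30 members), 0.03 in neuron MAGL-KO (30 members) and -0.18 in global MAGL-KO (29 members), against 0.00, -0.02 and 0.01 for all features. Over the alternatives they ran from -0.23 to 0.29, from -0.27 to 0.32 and from -0.45 to 0.08. The alternative with m1 alone kept the members of the main comparison. The values within m0 and m1 that follow are for members with at least 30 UMIs there, so they can lie outside these ranges. Within m0 they were 0.00, 0.13 and -0.24 (all features 0.00, -0.03 and 0.02). Within m1 the median of 18 members was 0.34 in astrocyte MAGL-KO, with 14 above 5xFAD (all features -0.03), and -0.01 in global MAGL-KO, with 9 above and 9 below (all features 0.00). At least 1.5-fold higher were 1, 1 and 0 members (10.0%, 8.72% and 8.78% of all features), and lower were 1, 4 and 3 (10.3%, 10.7% and 9.42%). Of 30, 30 and 29 members, these are smaller shares than those of all features for each count of higher members and for the lower count in astrocyte MAGL-KO, and near them for the other 2 lower counts.

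Arsb was the member lower past 1.5-fold in each of the 3 libraries. From 989.7 CPM in 5xFAD it stood at 504, 469 and 474 CPM, log2 ratios of -0.97 [-1.30, -0.65], -1.08 [-1.47, -0.70] and -1.06 [-1.42, -0.71]. Within m0 the 3 ratios were -0.89 [-1.30, -0.48], -1.01 [-1.49, -0.54] and -0.73 [-1.197, -0.29]. The ratios for whole microglia kept their sign in the 15 or 16 alternatives run for each, and were smallest with classes by marker score, at -0.36, -0.22 and -0.35. Cut sites at the Arsb promoter in microglia stood at 32.0 CPM in wild type and 55.5 in 5xFAD, and at 36.3, 37.8 and 25.8 in the knockout libraries, on 12 to 44 cut sites each. In excitatory neurons Arsb stood at 182, 170.2, 185, 176 and 172 CPM, so a difference of this size was not seen there.

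Ctsl was the member higher past 1.5-fold in the astrocyte and neuron MAGL-KO libraries, with ratios to 5xFAD of 0.66 [0.25, 1.07], 0.61 [0.16, 1.06] and 0.33 [-0.11, 0.78] over the 3 knockout libraries. Within m0 it stood at 454, 633, 633 and 504 CPM in 5xFAD and the 3 knockout libraries, and within m1 at 156, 179, 490.3 and 399.7 CPM in wild type, 5xFAD, astrocyte and global MAGL-KO. The m1 value of 5xFAD rests on 12 UMIs. Ctsd differed in direction between the knockout libraries, with ratios of -0.03 [-0.18, 0.13], 0.39 [0.23, 0.55] and -0.43 [-0.60, -0.25], and so did Ctsb, with 0.01 [-0.23, 0.26], 0.13 [-0.13, 0.40] and -0.48 [-0.76, -0.19]. The last of these turned sign in 1 alternative each, Ctsd to 0.21 within m1 and Ctsb to 0.11 in nuclei with Y-linked UMIs alone.

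Of 29 members, 23 lay below 5xFAD for global MAGL-KO as labelled, where the median of all features was 0.01. The share of all features below 5xFAD is not given here. Lower past 1.5-fold were 3 members (9.42% of all features) in that library. The summed level there was lower by a log2 ratio of -0.26 [-0.34, -0.19]. Ctsz (-0.42 [-0.81, -0.04]) and Psap (-0.50 [-0.93, -0.08]) were lower without passing 1.5-fold, and Atp6v0c (-0.69 [-1.40, 0.00]) and Atp6v1e1 (-0.62 [-1.69, 0.40]) passed it with intervals that include 0. Grn, Lamp1, Lamp2, Atp6v0a1 and Atp6v1a stood at -0.16, -0.55, -0.26, 0.02 and -0.19. The m0 share was 51 of 97 nuclei, beside 55 of 86 in 5xFAD, and the medians were -0.24 over 26 members within m0 and -0.01 over 18 members within m1. The macrophage markers raised in this library belong to the microglial class as clustered, and leaving those nuclei out gave 2 members lower past 1.5-fold (9.65% of all features) in place of 3. With the stricter filter 11 were (15.0%), and the median was -0.44 (all features -0.13). Cut sites at member promoters in microglia summed to 3088 CPM over 41577 bases of peaks in 5xFAD (74.3 CPM per kb) and 2783 CPM over 39882 bases in global MAGL-KO (69.8 CPM per kb). Those peaks were called separately, so no ratio is read from the sums.

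In the library labelled neuron MAGL-KO the other members past 1.5-fold were pump subunits, all lower: Atp6v1b2 (-1.25 [-2.27, -0.31]), Atp6v1e1 (-0.98 [-2.27, 0.19]) and Atp6v0a1 (-0.59 [-1.18, -0.02]). They rest on 13, 9 and 40 UMIs there, and Atp6v0a1 turned to 0.25 with nuclei thinned to 1000 UMIs. Lamp1 was higher (0.52 [0.02, 1.02]), as was Ctss (0.22 [0.03, 0.41]), while Grn (-0.06), Psap (-0.09), Lamp2 (0.01) and Atp6v1a (-0.34) had intervals that include 0. In the library labelled astrocyte MAGL-KO, Grn, Psap, Lamp1, Lamp2, Atp6v0a1 and Atp6v1a had ratios from -0.40 to 0.21, all with intervals that include 0.

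Of the 65 other lysosomal genes, 27, 24 and 23 had enough UMIs in microglia for these comparisons, with medians of 0.12, 0.02 and -0.16. Higher past 1.5-fold were 1, 3 and 4 (10.0%, 8.72% and 8.78% of all features), and lower 2, 3 and 4 (10.3%, 10.7% and 9.42%). Slc38a9, an arginine sensor of the lysosomal membrane, was lower in each, with ratios of -0.98 [-1.54, -0.44], -1.16 [-1.84, -0.51] and -0.66 [-1.22, -0.12]. Lgmn, the asparagine endopeptidase that activates cathepsins, was higher in astrocyte (0.58 [0.31, 0.85]) and global MAGL-KO (0.72 [0.45, 1.00]). The 3 highest were Manba (0.64), Lgmn (0.58) and Gnptab (0.57) in astrocyte, Gnptab (0.93), Fuca1 (0.86) and Atp6v0e (0.84) in neuron and Manba (0.82), Lgmn (0.72) and Tfe3 (0.68) in global MAGL-KO. Manba, beta-mannosidase, was thus the highest in astrocyte and global MAGL-KO, with intervals that include 0. The 3 lowest were Slc38a9 (-0.98), Sumf1 (-0.78) and Tpp1 (-0.29) in astrocyte, Slc38a9 (-1.16), Sumf1 (-1.12) and Atp6v0a2 (-0.89) in neuron and Tcirg1 (-1.204), Ppt1 (-0.72) and Slc38a9 (-0.66) in global MAGL-KO. Tcirg1, another form of the V0 membrane anchor, had an interval without 0 ([-2.18, -0.30]) in global MAGL-KO.

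Oligodendrocytes, the myelin-forming cells, had member medians of -0.16 for 5xFAD over wild type (28 members) and of 0.31, 0.20 and 0.04 for the knockout libraries over 5xFAD (30, 29 and 27 members). All features had medians of -0.02, 0.04, 0.05 and -0.01. In astrocyte and neuron MAGL-KO, member genes shorter than 20 kb had medians of 0.37 (11 members) and 0.42 (10 members), and all features of that length 0.27 and 0.21. Longer members had 0.22 and 0.01 (19 members each), and all longer features -0.01 and 0.01. In 5xFAD 0 members were at least 1.5-fold higher (5.61% of all features) and 3 lower (7.87%), namely Gusb (-0.78 [-1.92, 0.32]), Atp6v1d (-0.70 [-1.58, 0.16]) and Atp6v1c1 (-0.61 [-1.31, 0.08]). Each of the 3 intervals includes 0. In the library labelled astrocyte MAGL-KO 7 were higher (12.3%) and 0 lower (6.75%), and 5 of the 7 were proteases. Ctsf, a cysteine protease, stood at 13.5, 11.5, 28.8, 15.4 and 11.5 CPM (1.32 [0.25, 2.47]), Ctsb at 75.3, 65.2, 103, 63.8 and 82.1 CPM (0.66 [0.18, 1.15]) and Ctso at 52.9, 39.3, 65.4, 68.9 and 54.2 CPM (0.73 [0.11, 1.37]). Ctsf had 68 UMIs over all 5 libraries, and it reached the minimum here mainly through astrocyte MAGL-KO. Gusb (0.92 [-0.19, 2.07]) and Ctsz (0.75 [-0.24, 1.77]) had intervals that include 0, and so did Atp6v1d and Ctsa.

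In the library labelled neuron MAGL-KO 4 members were higher in oligodendrocytes (13.2% of all features) and 0 lower (5.01%). Gaa had 8 UMIs in 5xFAD and 26 in that library (1.80 [0.62, 3.16]), so it reached the minimum mainly through neuron MAGL-KO. Ctso had a ratio of 0.81 [0.23, 1.41], Atp6v1c1 of 0.67 [0.01, 1.35] and Atp6v1d of 0.62 [-0.24, 1.49]. In global MAGL-KO 0 were higher (8.70%) and 2 lower (7.79%), Ctsl (-1.08 [-2.09, -0.17]) and Atp6v0d1 (-0.66 [-1.41, 0.06]), and Ctsl turned to 0.30 in nuclei with Xist UMIs alone. Tfeb had ratios of 0.11, 0.04, 0.21 and 0.06 in the 4 comparisons, all with intervals that include 0. Lamp1 stood at 193, 230.1, 290.4, 269.6 and 185 CPM and Psap at 108, 122, 154, 148 and 141 CPM, and their ratios to 5xFAD were within 1.5-fold in the 3 knockout libraries. Ctsd, by contrast with its microglial level, stood at 29.2, 25.9, 31.4, 32.9 and 34.5 CPM. Microglial markers summed to 27.0, 31.6, 43.2, 32.9 and 29.5 CPM in this class, and their part in the values was not tested.

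Astrocytes were few, and their ratios are the least certain. Medians were 0.04 for 5xFAD over wild type (21 members) and 0.47, 0.24 and -0.07 for the knockout libraries over 5xFAD (18, 19 and 14 members), beside -0.04, 0.06, 0.00 and 0.01 for all features. In astrocyte and neuron MAGL-KO, members shorter than 20 kb had medians of 0.59 (5 members) and 0.51 (6 members) and all features of that length 0.37 and 0.36, while longer members had 0.12 and 0.11 (13 members each) and all longer features 0.01 and -0.03. The counts past 1.5-fold were 5 higher and 3 lower (13.8% and 11.9% of all features), 7 and 4 (16.5% and 17.4%), 5 and 3 (13.9% and 16.2%) and 1 and 4 (14.5% and 21.4%). Ctso, a little-studied cysteine protease, stood at 53.4, 32.3, 114, 142 and 92.8 CPM, a ratio to 5xFAD of 1.82 [0.77, 2.93] in astrocyte and 2.14 [1.17, 3.19] in neuron MAGL-KO. Ctsb stood at 92.8, 62.1, 119, 125 and 59.1 CPM (0.94 [0.06, 1.82] and 1.01 [0.18, 1.84]). The 5xFAD library was the lowest of the 5 for Ctso, and the wild type library lay between it and the knockout libraries.

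In astrocytes of 5xFAD the 5 members higher than in wild type were Arsb (1.17 [0.12, 2.32]), Atp6v1a (0.96 [0.17, 1.80]), Ctsd (0.76), Atp6v1h (0.71) and Atp6v1b2 (0.67). The 3 lower were Ctsl (-0.74), Ctso (-0.73) and Lamp2 (-0.71 [-1.27, -0.17]). Arsb and Atp6v1a were lower past 1.5-fold in each of the 3 knockout libraries, Arsb with -0.75, -0.85 and -1.46 and Atp6v1a with -0.81, -0.86 and -0.89, and the 6 intervals include 0. Atp6v0c was higher in neuron MAGL-KO (1.12 [0.59, 1.67]), and so was Psap (0.64 [0.20, 1.09]), while Atp6v0b (0.72 [0.16, 1.26]) and Asah1 (0.78 [0.00, 1.54]) were higher in astrocyte MAGL-KO. Scarb2 and Atp6v0a1 had -0.83 and -0.74 there, and Atp6v1b2 had -1.41 in global MAGL-KO, with intervals that include 0. Nuclei with UMIs of both Xist and Y-linked genes made up 6.94%, 15.4%, 6.25%, 12.9% and 0% of astrocytes, and excitatory neuron markers summed to 146, 291, 109, 249.5 and 101 CPM, highest in 5xFAD. Without those nuclei the astrocytes of 5xFAD went from 52 nuclei and 402474 UMIs to 44 and 223175, and the 4 member medians were 0.01, 0.27, 0.08 and -0.31 (all features 0.00, -0.02, -0.05 and -0.03). Higher past 1.5-fold were then 6 members in place of 5 in 5xFAD (15.2% of all features) and 4 in place of 7 in astrocyte MAGL-KO (14.8%). In neuron MAGL-KO 7 were in place of 5 (16.5%), and in global MAGL-KO 1 as before (13.1%). Of the ratios above, Arsb in 5xFAD turned to -0.14 with classes by marker score, and Atp6v1a to -0.27 and Atp6v1h to -0.68 in nuclei with Xist UMIs alone. In astrocyte MAGL-KO, Ctsb turned to -0.15 and Atp6v0b to -0.30 with nuclei thinned to 1000 UMIs.

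Excitatory neurons carry most of the UMIs, so 37 of 38 members had a ratio in each comparison. The exception was Ctsh, with 6 to 10 UMIs per library. The make-up of the class differed between libraries. Its cluster led by Pappa held 0, 0, 23, 197 and 178 nuclei and that led by Plekha2 258, 192, 606, 198 and 698. The comparisons of excitatory neurons thus compare different mixtures, and the part of this in the ratios was not tested. In 5xFAD the members stood close to wild type, with a median of 0.05 (all features -0.02). At the 1.2-fold limit used for neurons, 6 were higher (7.48% of all features) and 2 lower (13.8%). The 6 were Ctss (1.21 [0.64, 1.80]), Ctsz (0.47 [0.12, 0.82]), Tfeb (0.39 [0.08, 0.71]), Ctsd (0.30 [0.14, 0.47]), Npc2 (0.30 [0.07, 0.53]) and Ctsc (0.30 [-0.09, 0.69]). Ctss, Ctsz, Ctsd and Npc2 are also higher in 5xFAD microglia, and they stood at 0.61 to 12.9 CPM in neurons. Microglial markers summed to 28.0, 25.7, 46.8, 46.5 and 28.6 CPM in excitatory neurons, and the part of free microglial RNA in these low levels was not tested. The 2 lower were Ctso (-0.38 [-0.66, -0.11]) and Gla (-0.28 [-0.58, 0.01]), alpha-galactosidase. Tfeb turned to -0.28 with nuclei thinned to 1000 UMIs and Ctso to 0.33 in nuclei with Xist UMIs alone.

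In the library labelled astrocyte MAGL-KO 19 of 37 members were at least 1.2-fold higher than in 5xFAD, and in neuron MAGL-KO 16, where 47.5% and 43.6% of all features were. Member medians were 0.26 and 0.24, all features stood at 0.24 and 0.21, and 0 members were lower past 1.2-fold in either (4.93% and 7.0% of all features). The share of members and the share of all features were thus close in both libraries. With median-of-ratios size factors in place of class totals, the member medians were 0.01 and 0.02 and those of all features -0.01 and -0.01. Higher past 1.2-fold were then 4 members (25.3% of all features) in astrocyte and 4 (25.9%) in neuron MAGL-KO, and lower 1 (19.1%) and 4 (19.7%). In global MAGL-KO the median was 0.05 (all features 0.05), 5 members were higher (18.7%) and 2 lower (8.26%).

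The size of the ratio went with gene length. Members shorter than 20 kb had medians of 0.45 and 0.41 in the astrocyte and neuron MAGL-KO libraries (15 members), and all features of that length 0.40 and 0.37. Longer members had 0.15 and 0.10 (22 members), and all longer features 0.13 and 0.09. The medians of short and long members therefore stood near those of their own length class in both libraries.

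**Figure D5:**
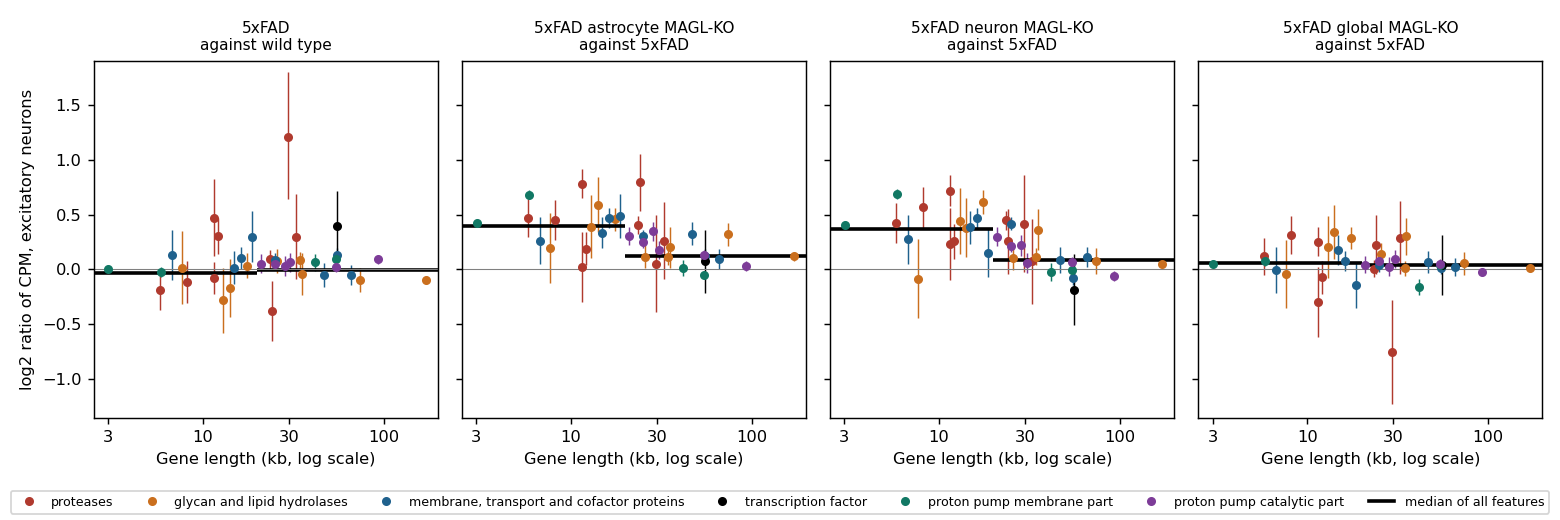
Log2 ratio of CPM in excitatory neurons against gene length (kb, log axis) for 37 members in 4 comparisons; points are members coloured by role, thin bars are 95% conditional binomial intervals, and thick black lines are the median of all features shorter and longer than 20 kb. In the astrocyte and neuron MAGL-KO panels the medians of the short members (0.45 and 0.41) and of the long ones (0.15 and 0.10) lie near the black lines. Single members lie on both sides of the lines.

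Single members stood above the median of their length class. Atp6v0c, a gene of 5.84 kb for the proton-carrying ring, stood at 121, 119, 191, 193 and 126 CPM in excitatory neurons, and its ratios to 5xFAD were 0.68 [0.64, 0.72] and 0.69 [0.65, 0.73] in astrocyte and neuron MAGL-KO and 0.08 [0.03, 0.12] in global MAGL-KO. Ctsl stood at 12.6, 11.9, 20.5, 19.6 and 14.2 CPM (0.78 [0.65, 0.91], 0.72 [0.58, 0.86] and 0.25 [0.12, 0.39]). For both genes those 2 libraries were above the other 3. Atp6v0b, another ring subunit, stood at 182, 183, 245, 242 and 189.7 CPM (0.42, 0.41 and 0.05), near the value of its length class. Gaa had ratios of 0.46, 0.62 and 0.28, Ctsa 0.45, 0.56 and 0.31 and Lamp1 0.47, 0.47 and 0.08, of which Lamp1 in neuron MAGL-KO came to -0.00164 with thinned nuclei. Ctso was higher in astrocyte MAGL-KO (0.79 [0.54, 1.05]), as were Gusb (0.59 [0.34, 0.84]) and Npc2 (0.48 [0.29, 0.68]).

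Among the other representatives, Ctsb and Psap had ratios in neuron MAGL-KO about as large as that of Atp6v0b. These genes are 23.5 and 25.0 kb long, and they stood above the median of all features of 20 kb or longer there (0.09). Both lie just over the 20 kb limit, and that class also holds much longer genes. Ctsd (12.1 kb) and Grn (6.73 kb) stood below the medians of all features shorter than 20 kb (0.40 and 0.37). Smaller ratios in astrocyte and neuron MAGL-KO were seen for Atp6v0a1, Atp6v1a, Lamp2, Ctsd, Grn and Tfeb. Atp6v0a1, at 243, 260.3, 252, 259 and 267 CPM, had ratios of -0.05, -0.01 and 0.04, and Atp6v1h, a regulator of the V1 head, stood at 133, 142, 145, 136 and 139 CPM. Atp6v1a had ratios of 0.13, 0.06 and 0.05. Lamp2 had 0.13, -0.07 and 0.02, Psap 0.30, 0.41 and 0.04, Ctsb 0.41, 0.45 and 0.01, Ctsd 0.19, 0.26 and -0.07, Grn 0.26, 0.27 and 0.00 and Tfeb 0.08, -0.18 and 0.04. In global MAGL-KO the highest were Gusb (0.34), Ctsa, Lipa (0.30) and Ctsc (0.29), and Ctss (-0.75 [-1.23, -0.28]) and Ctsz (-0.30 [-0.61, 0.02]) were lower. With thinned nuclei Ctsa turned to -0.16 there and Lipa to -0.64. Dentate granule neurons, set against the other excitatory neurons of the same library, had member medians from -0.12 to -0.03, where all features had 0.00 to 0.05.

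In inhibitory neurons the members had medians of -0.01 for 5xFAD over wild type and 0.33, 0.22 and 0.07 for the knockout libraries over 5xFAD, beside 0.02, 0.18, 0.13 and 0.03 for all features. At least 1.2-fold higher were 0 (14.4% of all features), 24 (41.1%), 17 (36.2%) and 6 (19.8%), and lower were 2 (13.3%), 2 (8.61%), 1 (8.59%) and 2 (13.2%). Members shorter than 20 kb had medians of 0.56 and 0.52 in astrocyte and neuron MAGL-KO, and all features of that length 0.40 and 0.33. With size factors the 24 became 15 (25.7% of all features) and the 17 became 16 (24.7%), and 4 (20.3%) and 1 (18.3%) were lower. In Ctss and Ctsh together, left out of the 5xFAD counts for few UMIs, 29 UMIs in 5xFAD stood against 4 in wild type (2.29 [0.78, 4.26]).

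Nuclei with UMIs of both Xist and Y-linked genes made up 23.6%, 20.1%, 17.6%, 19.3% and 14.7% of inhibitory neurons, and without them the wild type library had 4474993 of its 9039908 UMIs in this class. The medians of the 4 comparisons were then -0.07, 0.38, 0.34 and 0.06 (all features 0.01, 0.19, 0.14 and 0.03), and 9 members in place of 2 were lower in 5xFAD (19.1% of all features). Of the 4 inhibitory clusters, those led by Vip and by Ano1 held Slc17a7, a marker of excitatory neurons, at 93.2 and 81.2 CPM, those led by Sst and by Egfr at 19.3 and 48.0 CPM, and the excitatory clusters at 136 CPM or more. The cluster led by Ano1 held 53, 151, 96, 62 and 94 of the 280, 407, 427, 285 and 430 inhibitory nuclei, so the comparisons of this class compare different mixtures. Its part in the ratios was not tested. Another 4 clusters that scored highest for inhibitory markers, of 1200, 370, 87 and 59 nuclei, stayed unnamed and are not in the class.

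Atp6v0c stood at 162, 169.7, 294, 281 and 193 CPM in inhibitory neurons, with ratios of 0.80 [0.71, 0.88], 0.73 [0.65, 0.81] and 0.19 [0.10, 0.28], in each the highest of the pump subunits. Ctso had 1.18 [0.52, 1.87] and 0.96 [0.29, 1.65] on 32 to 51 UMIs per library, and Ctsl 0.79, 0.52 and 0.34. Mcoln1, the lysosomal calcium channel, stood at 13.4, 11.1, 18.4, 17.6 and 13.8 CPM (0.72, 0.66 and 0.31), and Gaa at 39.8, 39.7, 64.9, 58.0 and 48.3 CPM (0.71, 0.55 and 0.28). Both were past 1.2-fold higher in the 3 knockout libraries, and Naglu, an N-acetylglucosaminidase, (0.77 [0.11, 1.44]) and Grn (0.63 [0.17, 1.10]) were higher in neuron MAGL-KO. Naglu turned to -0.48 there with thinned nuclei and to -0.78 in nuclei with Y-linked UMIs alone. Naglu stood at 2.61 to 4.45 CPM, and neuron MAGL-KO had 285 inhibitory nuclei, 38 of them with Y-linked UMIs alone. Both values thus rest on very few UMIs, and no direction is read from them. In 5xFAD the 2 lower members were Ctso (-0.70) and Mcoln1 (-0.27). In global MAGL-KO the highest was Grn (0.51 [0.01, 1.00]) and the 2 lower were Ctss (-0.77) and Gla (-0.45), with intervals that include 0. Grn came to -0.00126 there with doublet-rich clusters kept, and Ctsl to -0.46 with thinned nuclei. Tfeb went the other way, at 4.54, 4.85, 3.40, 2.74 and 4.04 CPM (-0.51 [-1.17, 0.12], -0.82 [-1.51, -0.17] and -0.26 [-0.89, 0.34]), on 29 to 65 UMIs. Ctsd, Ctsb, Psap and Lamp1 had ratios to 5xFAD of 0.33, 0.53, 0.52 and 0.55 in astrocyte MAGL-KO and of 0.43, 0.44, 0.51 and 0.44 in neuron MAGL-KO. Lamp2, Atp6v0a1 and Atp6v1a stayed between -0.11 and 0.11 in both.

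Among the other lysosomal genes, of 60 with enough UMIs in excitatory neurons, 35 were at least 1.2-fold higher in astrocyte and 34 in neuron MAGL-KO, with medians of 0.29 and 0.29, beside 47.5% and 43.6% of all features. In global MAGL-KO 6 were (18.7% of all features), with a median of 0.08. In 5xFAD the highest of them were Manba (0.44), Atp6v1f (0.32) and Tcirg1 (0.27) and the lowest Idua (-0.36), Tpcn2 (-0.30) and Atp6v1c2 (-0.20). Over 5xFAD, the highest were Cd68 (1.64), Laptm5 (1.00) and Cst3 (0.83) in astrocyte, Cd68 (1.36), Sgsh (1.04) and Aga (0.78) in neuron and Cd68 (1.62), Tpcn2 (1.15) and Idua (0.39) in global MAGL-KO. Cd68, a lysosomal membrane protein best known from microglia and macrophages, was the highest in each, on 20 UMIs in 5xFAD and 39 to 78 in the knockout libraries. The lowest were Atp6v1c2 (-0.35), Laptm4b (-0.26) and Ctsk (-0.20) in astrocyte, Ctsk (-0.46), Manba (-0.31) and Sort1 (-0.09) in neuron and Atp6v1c2 (-0.54), Sgsh (-0.53) and Laptm4b (-0.31) in global MAGL-KO.

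In inhibitory neurons 28 of 58 other lysosomal genes were higher in astrocyte and 26 of 57 in neuron MAGL-KO, beside 41.1% and 36.2% of all features, with medians of 0.25 and 0.24. The highest over 5xFAD were Aga (1.61), Cst3 (0.98) and Cd63 (0.97) in astrocyte, Gm2a (0.95), Aga (0.93) and Cd63 (0.82) in neuron and Aga (1.30), Smpd1 (0.51) and Cst3 (0.50) in global MAGL-KO. Aga, which cleaves asparagine from sugar chains, was among the highest in each. Among the lowest were Tpcn2 (-0.36), Mitf (-0.34) and Tpcn1 (-0.23) in astrocyte, Atp6v1c2 (-0.86), Ctsk (-0.27) and Lamtor2 (-0.07) in neuron and Tpcn1 (-0.49) in global MAGL-KO. In 5xFAD over wild type Tpcn1 (0.50) and Tpcn2 (0.49) were among the highest, and the lowest were Ctsk (-0.41), Smpd1 (-0.33) and Ostm1 (-0.24).

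Fewer of the other lysosomal genes had enough UMIs in glia. In astrocytes 15, 12, 13 and 8 had, with medians of -0.16, 0.24, 0.47 and 0.29 in the 4 comparisons (all features -0.04, 0.06, 0.00 and 0.01). Among the highest there were Tpp1 (1.02), Ostm1 (0.61) and Galc (0.48) in 5xFAD, and over it Laptm4a (1.21), Cst3 (1.12) and Cd63 (0.70) in astrocyte, Laptm4a (0.98) and Tpcn1 (0.92) in neuron and Sort1 (0.58), Slc38a9 (0.48) and Mitf (0.37) in global MAGL-KO. Cst3, cystatin C, an inhibitor of cysteine cathepsins, had the most UMIs of these. The lowest were Laptm4a (-0.53), Sort1 (-0.50) and Tpcn1 (-0.43) in 5xFAD, Tpp1 (-0.66), Ostm1 (-0.38) and Mitf (-0.26) in astrocyte, Atp6v0e (-0.57), Tpp1 (-0.41) and Ostm1 (-0.21) in neuron and Ostm1 (-0.16), Cd63 (0.08) and Laptm4a (0.18) in global MAGL-KO. In oligodendrocytes 39, 37, 40 and 36 had enough UMIs, with medians of 0.00, 0.11, 0.00 and 0.04 (all features -0.02, 0.04, 0.05 and -0.01). Among the highest were Tpcn1 (0.74), Clcn7 (0.73) and Igf2r (0.70) in 5xFAD, Ostm1 (0.96), Cst3 (0.70) and Laptm4a (0.56) in astrocyte, Neu1 (0.84), Atp6v1g1 (0.78) and Atp6v0a2 (0.72) in neuron and Lgmn (0.42) and Atp6ap2 (0.38) in global MAGL-KO. Neu1 is a sialidase. The lowest were Atp6ap2 (-0.82), Smpd1 (-0.81) and Manba (-0.42) in 5xFAD, Tpcn1 (-0.87), Ids (-0.61) and Man2b1 (-0.50) in astrocyte, Lamtor1 (-0.97), Man2b1 (-0.95) and Cln8 (-0.78) in neuron and Cln8 (-0.64), Tpcn1 (-0.63) and Sumf1 (-0.60) in global MAGL-KO.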

How the data were processed

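Nuclei of hippocampus were profiled for RNA and accessibility, with 1 library per group. Per the submitters' processing notes, Cell Ranger ARC 2.0.0, Seurat and mm10 were used; the roles of these and the peak settings are not given in the sources used here. The deposited values are raw UMI counts per gene and cut-site counts per peak in each nucleus; they were used as the authors deposited them. Nuclei with at least 500 genes and mitochondrial UMIs of at most 5% were kept. Doublets were called with scanpy 1.11.5 at 0.8% per 1000 nuclei, and clusters in which over 40% of nuclei had both Xist and Y-linked UMIs, whose second marker class scored above 0.75 of the best, with fewer than 3 markers raised, with more leading genes of another class, or (outside neurons) with no marker of their own among the leading genes stayed unnamed. Nuclei were clustered (Leiden, 2000 variable genes, 40 components) without the members and companion genes, and clusters were named from marker lists.

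UMIs were summed per class and library. A ratio was formed where both libraries together held at least 30 UMIs; values past 1.5-fold (1.2-fold in neurons) were counted. With 1 library per group no test was made. The members, the list of 65 other lysosomal genes and the representatives were chosen with earlier results of these data known. Genes named are members past the fold, at most 5 each way, the representatives Ctsd, Ctsb, Ctss, Grn, Psap, Lamp1, Lamp2, Tfeb, Atp6v0a1 and Atp6v1a, and the 3 highest and lowest other lysosomal genes, apart from some that are not reported here; others named were chosen after their values were seen. Gene lengths are from GENCODE vM21 (99.6% of features). Promoter sequences are from RefSeq, GRCm38.p6. Only the function that forms ratios and their intervals was tested on simulated counts. Used per library were 3917 to 7032 nuclei, and total UMIs were 101931020 to 159532813, so that counting error is small in excitatory neurons and wide in astrocytes and microglia. The alternatives covered filters, doublets, class naming, scaling, thinning, low counts, the sex-linked UMIs of nuclei and the promoter window.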

Additional observations from a re-analysis of the deposited data

How the results depend on the processing

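No paired analysis was possible because there is 1 library for every group. Of 3649 values of single members under the alternatives, 314 had the other sign, among them 18 of ratios past the fold with intervals without 0, and 191 of 572 counts of members moved by over 1.5 times. Excitatory medians moved with size factors to 0.0128 in astrocyte and 0.0236 in neuron MAGL-KO, and to -0.0439 in global MAGL-KO with Y-linked nuclei alone. Summed excitatory promoter accessibility over 5xFAD was -0.0243 in astrocyte and -0.108 in global MAGL-KO within 500 bases, and -0.00370 and -0.0861 within 1000 bases; peaks were called separately in each library, so no change is read from these sums. Members without overlap between microglia and the other classes were 10 with classes by marker score (3.82% of all features).

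In microglia the 5xFAD median ran from 0.23 (subcluster m1) to 1.06 (stricter filter), and the knockout medians from -0.23 to 0.29, -0.27 to 0.32 and -0.45 to 0.08. The m1 alternative kept the members of the main comparison, so its values differ from those for members with enough UMIs within m1. It had 6 members higher in 5xFAD, where 3 of the 16 with enough UMIs within m1 were. Counts past the fold are given over microglia, astrocytes, oligodendrocytes, excitatory and inhibitory neurons. Counts higher in 5xFAD than in wild type ran from 6 to 19, 0 to 9, 0 to 4, 0 to 8 and 0 to 9, and counts lower from 0 to 4, 0 to 8, 0 to 7, 0 to 5 and 1 to 11. Against 5xFAD, astrocyte MAGL-KO had 0 to 9, 2 to 11, 6 to 11, 4 to 23 and 15 to 27 higher and 1 to 8, 0 to 7, 0 to 2, 0 to 2 and 0 to 4 lower. Neuron MAGL-KO had 1 to 7, 4 to 11, 2 to 7, 4 to 20 and 15 to 25 higher and 1 to 8, 0 to 6, 0 to 3, 0 to 4 and 1 to 4 lower. Global MAGL-KO had 0 to 7, 0 to 8, 0 to 6, 0 to 7 and 2 to 12 higher and 2 to 11, 0 to 11, 1 to 7, 0 to 5 and 0 to 8 lower.

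With nuclei thinned to 1000 UMIs the sign turned for Atp6v0a1 in microglia of neuron MAGL-KO (0.25), Ctsb (-0.15) and Atp6v0b (-0.30) in astrocytes of astrocyte MAGL-KO, and Tfeb (-0.28 in 5xFAD), Lamp1 (-0.00164 in neuron MAGL-KO), Ctsa (-0.16) and Lipa (-0.64, both global MAGL-KO) in excitatory neurons. It turned also for Naglu (-0.48, neuron MAGL-KO) and Ctsl (-0.46, global MAGL-KO) in inhibitory neurons. In nuclei with Xist UMIs it turned for Atp6v1h (-0.68) and Atp6v1a (-0.27) in astrocytes of 5xFAD, Ctsl in oligodendrocytes of global MAGL-KO (0.30) and Ctso in excitatory neurons of 5xFAD (0.33). In nuclei with Y-linked UMIs it turned for Atp6v0b in astrocytes of astrocyte MAGL-KO (-0.0785) and Naglu in inhibitory neurons of neuron MAGL-KO (-0.78). Other turns were Arsb (-0.14, marker score) and Atp6v1h (-0.0722, no doublet removal) in astrocytes of 5xFAD, and Grn in inhibitory neurons of global MAGL-KO (-0.00126, doublet-rich clusters kept). Thinning leaves few UMIs for members at low levels, such as Naglu and Tfeb, and no intervals are given for the thinned ratios. The cause of the turns was not tested. Keeping doublet-rich clusters, leaving out nuclei with both Xist and Y-linked UMIs, leaving out macrophage-marked microglia and subcluster m1 were chosen after seeing the data. Depth limits astrocytes (31 to 72 nuclei) and the V1 subunits in microglia (4 to 10 wild type UMIs for those past the fold).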

Other observations

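Ctso, a member of the protease list singled out after its values were seen, was lowest in the 5xFAD library in each of the 5 classes. It stood at 63.0, 36.2, 58.1, 46.9 and 82.3 CPM in microglia, on 6, 8, 15, 8 and 17 UMIs and so below the minimum for a ratio in each comparison, at 53.4, 32.3, 114, 142 and 92.8 CPM in astrocytes and 52.9, 39.3, 65.4, 68.9 and 54.2 CPM in oligodendrocytes. In excitatory neurons it stood at 4.12, 3.17, 5.49, 3.78 and 3.70 CPM and in inhibitory neurons at 3.87, 2.39, 5.42, 4.64 and 3.06 CPM. The 5 classes of a library share its preparation, so they are not separate observations, and in excitatory nuclei with Xist UMIs the ratio of 5xFAD to wild type was 0.33 where all nuclei gave -0.38.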
